A study of Homo sapiens with 36 samples.

Results

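K562 cells, an erythroleukemia line from a patient with chronic myeloid leukemia that carries the BCR-ABL1 fusion and transcribes embryonic and fetal globin genes, were kept in air-level oxygen for 3 d or for 6 h. Their polyadenylated RNA was sequenced. The comparison rests on 6 of the 36 libraries of a study of 3 oxygen levels and 4 times: 3 replicates of cells in an incubator at 21% oxygen at 3 d, and 3 replicates at 21% oxygen at 6 h. No agent, guide or genetic change is given in the labels for either group, and all libraries share the line, the DMEM medium and seeding at 100000 cells per ml. The plates were passaged at 3 d. Whether the 3 d cells were collected before or after that step is not given in the sources used here, nor is the cell density at collection. The labels do not say whether replicates came from separate cultures, so p-values measure the spread between these libraries, which may be technical. The deposited table holds 21950 genes in FPKM, a level in fragments corrected for transcript length and library depth. The 10296 genes with a mean of at least 1 FPKM over the 6 libraries were tested. Differences are given as log2(FPKM + 1) at 3 d minus 6 h, which understates the change of low genes. Each has a standard error and a Benjamini-Hochberg adjusted p from limma over all genes tested, and below, "passed" means that this p was under 0.05.

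Cells adjust sterol synthesis through SREBP transcription factors: when sterols in the endoplasmic reticulum run low, SREBPs are released from INSIG proteins, reach the nucleus and raise the enzymes of cholesterol and fatty acid synthesis. ATF4 does the same for amino acid synthesis and tRNA charging when amino acids are short. In erythroid cells, GATA1 and its partners drive globins, heme synthesis and the red cell membrane, and retinoic acid acts through nuclear receptors that raise the enzymes that clear it.

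The libraries at 3 d were sampled more deeply than those at 6 h. Relative depth, read from the step between the lowest values above 0 and set to 1 in replicate 1 of 3 d, was 0.895 to 1.01 at 3 d and 0.607 to 0.768 at 6 h. Genes above 0 numbered 17526 to 17951 at 3 d and 16043 to 16444 at 6 h. Of 375 olfactory receptor genes, 33.3% to 38.4% were above 0 at 3 d against 18.4% to 21.3% at 6 h. Neither of these measures tracked relative depth across libraries. Replicate 2 of 6 d in 21% oxygen, at a relative depth of 0.590, had 17941 genes and 39.2% of the receptors above 0. Replicate 1 of 6 h stood apart from the other replicates in GC-rich genes: it lay under 0.67 of the lower of the other 6 h libraries in 126 of the 1125 genes that rose (11.2%), in 2 of the 778 that fell (0.257%) and in 600 of the 8393 others (7.15%). The GC content of the 126 had a median of 57.7% and that of the 600 a median of 58.1%. The part of depth and of this library in the differences was not tested beyond leaving the library out, which gave 1091 higher and 633 lower genes.

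Between 3 d and 6 h, 1903 genes differed, 18.5% of those tested: 1125 were higher at 3 d and 778 were lower. A change of at least 2-fold was seen in 137 of them, 112 higher and 25 lower, so most changes were small. The 3 replicates of 3 d did not overlap those of 6 h in 1901 of these 1903 genes, and 42% of all genes tested did not overlap. The median difference over all genes was 0.03. The split between directions depended on the scaling: with each library scaled to the same total (TPM) 1732 genes were higher and 401 lower, with a median of 0.13 over all genes. With quantile normalization, 1041 were higher and 1212 lower. Without replicate 1, 2 or 3 of 3 d, 688, 661 and 845 genes passed. Genes that rose had a median GC content of 53.05% and genes that fell 46.6%, against 48.3% for all genes tested; their median lengths were 2502 and 1861 bases, against 2729.

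**Figure D1:**
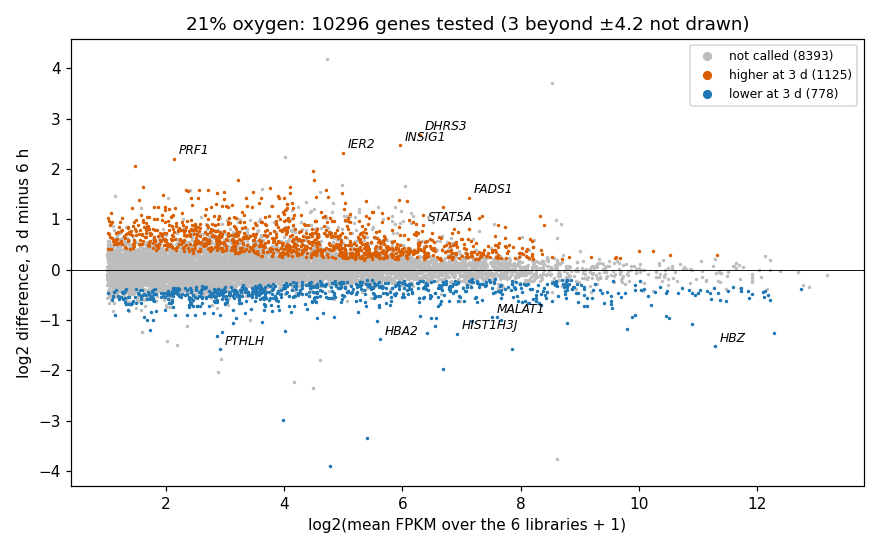
Each point is 1 of the genes tested, with the log2 of its mean FPKM over the 6 libraries plus 1 on the horizontal axis and the log2 difference, 3 d minus 6 h, on the vertical axis; orange points passed as higher at 3 d (1125), blue points as lower (778) and grey points did not pass. Most coloured points lie within a log2 difference of 1, DHRS3 and INSIG1 are the highest of the labelled genes, and HBZ is the most abundant labelled gene that fell.

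DHRS3 had the largest rise of the 15 chosen by the naming rule. DHRS3, a reductase that returns retinal to retinol and is itself induced by retinoic acid, had 129, 134 and 143 FPKM at 3 d, against 19.9, 20.4 and 20.6 FPKM at 6 h. Its 3 d values were all more than 6 times its 6 h values, and each group was tight (log2 difference 2.68 ± 0.06, adjusted p = 1.06e-06). CYP26A1, the enzyme that degrades retinoic acid, had 2.91, 3.82 and 3.71 FPKM at 3 d, against 0, 0 and 0.211 FPKM at 6 h. It was listed at 0 in 2 of the 6 h libraries (log2 difference 2.07 ± 0.14, adjusted p = 0.000709). TGM2, a transglutaminase induced by retinoic acid, had 48.7, 52.5 and 52.1 FPKM at 3 d, against 28.9, 29.7 and 27.98 FPKM at 6 h (log2 difference 0.80 ± 0.06, adjusted p = 0.000886). CYP26A1 and TGM2 were chosen after their values were seen, because of DHRS3. In the fit of the 12 libraries of 21% oxygen, DHRS3 and CYP26A1 also passed as higher at 24 h than at 6 h. That comparison shares these 6 h libraries, so it is not a separate check of their rise.

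Among the 15 largest rises by the naming rule, several encode signalling or surface proteins. PRF1, the pore-forming protein perforin of cytotoxic lymphocytes, had 5.81, 5.80 and 6.88 FPKM at 3 d, against 0.673, 0.346 and 0.653 FPKM at 6 h (log2 difference 2.21 ± 0.13, adjusted p = 0.000471). KCNN4, a calcium-activated potassium channel, had 13.5, 12.9 and 13.5 FPKM at 3 d, against 2.07, 4.36 and 3.41 FPKM at 6 h (log2 difference 1.78 ± 0.19, adjusted p = 0.00264). F2R, the thrombin receptor PAR1, had 16.8, 14.3 and 14.7 FPKM at 3 d, against 2.95, 6.12 and 5.19 FPKM at 6 h (log2 difference 1.54 ± 0.21, adjusted p = 0.00476). The naming rule took only genes without overlap between the groups, so the separation of these 3 genes was set by that choice. Replicate 1 of 6 h was the lowest of the 6 h libraries in KCNN4 and F2R. TSPAN4, a tetraspanin, and C10orf54, which encodes the immune checkpoint ligand VISTA, rose by 1.78 and 1.58 on the log2 scale. SDHAF1, NOA1, DAPK3 and SLC9A3R1 (an assembly factor of succinate dehydrogenase, a mitochondrial GTPase, a kinase of cell death and a membrane scaffold) rose by 1.97, 1.58, 1.58 and 1.63, but their replicates were spread. SDHAF1 had 49.9, 30.1 and 23.1 FPKM at 3 d, against 4.82, 5.83 and 14.98 FPKM at 6 h (adjusted p = 0.0181). The calls of SDHAF1, NOA1 and DAPK3 were lost without replicate 1 or 2 of 3 d or replicate 2 of 6 h, with an adjusted p of up to 0.0651 for SDHAF1, up to 0.107 for NOA1 and up to 0.0902 for DAPK3. That of NOA1 was lost without replicate 3 of 3 d as well, and that of SLC9A3R1 without replicate 2 of 3 d (adjusted p of up to 0.063). ROCK1P1, which rose by 1.64, is a pseudogene nearly identical to part of ROCK1, so its reads are uncertain. GLUL, the glutamine synthetase, was chosen after its values were seen, for the small spread of its replicates: it had 445, 424 and 443 FPKM at 3 d, against 239.9, 233 and 238 FPKM at 6 h (log2 difference 0.88 ± 0.05, adjusted p = 0.000435).

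Among the 15 largest falls, 7 (SNAR-G1, SNAR-G2, SNAR-E, MTRNR2L1, MTRNR2L2, FLJ26245 and the readthrough RPL36A-HNRNPH2) share sequence with near-identical copies, overlap another gene or have no described product. Their values are uncertain. PTHLH, the parathyroid hormone-related hormone, had 3.18, 3.64 and 1.70 FPKM at 3 d, against 11.4, 10.2 and 9.06 FPKM at 6 h (log2 difference -1.58 ± 0.20, adjusted p = 0.00434). HBZ, HBA2 and HBD (globins), HIST1H3J and HIST1H2BF (histones), MAB21L3 and C1orf53 made up the rest. C1orf53 lost its call whichever 1 of the 3 d libraries was left out (adjusted p of up to 0.0664).

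Transcripts of cholesterol synthesis and uptake rose. Of 25 list members tested, 18 were higher at 3 d and 0 lower, against 10.9% of all genes higher and 7.56% lower, with a median log2 difference of 0.53 against 0.03 over all genes. The counts of every list below are read against these shares. INSIG1, the sterol-regulated anchor that holds SREBPs back and a target of SREBP itself, had 125, 100.2 and 87.5 FPKM at 3 d, against 13.2, 21.01 and 20.3 FPKM at 6 h. Its lowest 3 d library was more than 4 times its highest 6 h library (log2 difference 2.47 ± 0.19, adjusted p = 0.000886).

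Transcripts of the enzymes of the pathway rose by less. SQLE, which makes squalene epoxide, averaged 119 ± 8.14 FPKM at 3 d and 74.9 ± 6.76 FPKM at 6 h (SD, n = 3 each; log2 difference 0.66 ± 0.08, adjusted p = 0.00434). DHCR7, which makes cholesterol from its last precursor, averaged 176 ± 6.77 FPKM at 3 d and 100.2 ± 4.27 FPKM at 6 h (log2 difference 0.81 ± 0.06, adjusted p = 0.000843). MSMO1, a C4 demethylase of the sterol ring, rose by 1.13 and MVK, the mevalonate kinase, by 1.10, a call that MVK lost whichever 1 of the 3 d libraries was left out (adjusted p of up to 0.066). HMGCS1, a synthase early in the pathway, did not pass. It had 15.5, 16.9 and 14.2 FPKM at 3 d, against 11.6, 13.9 and 16.3 FPKM at 6 h, and the groups overlapped (log2 difference 0.16 ± 0.13, adjusted p = 0.408). SREBF2, the gene of the SREBP that drives this pathway, had 13.7, 10.4 and 8.43 FPKM at 3 d, against 4.74, 6.47 and 6.89 FPKM at 6 h. All its 3 d values lay above all its 6 h values, with a wide spread at 3 d (log2 difference 0.74 ± 0.19, adjusted p = 0.0329). Its call was lost without replicate 1 or 2 of 3 d or replicate 2 of 6 h (adjusted p of up to 0.0956). The count of higher members was 12 without replicate 2 of 3 d, 13 without replicate 1 or 3 of 3 d, and 15 to 19 without a library of 6 h.

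A sterol response element, searched as TCACNCCAC on both strands, stood in the promoter window (250 bases before to 50 after the start) of SREBF2. It was in no other window of the 17 list members found among the RefSeq promoters, against 1.13% of all 35116 windows. The SREBF2 window is printed because its gene encodes the regulator and rose. It lies on the plus strand at chr22:41832855-41833154 (GRCh38.p14, from RefSeq), with the element in capitals, 133 bases before the start.
SREBF2: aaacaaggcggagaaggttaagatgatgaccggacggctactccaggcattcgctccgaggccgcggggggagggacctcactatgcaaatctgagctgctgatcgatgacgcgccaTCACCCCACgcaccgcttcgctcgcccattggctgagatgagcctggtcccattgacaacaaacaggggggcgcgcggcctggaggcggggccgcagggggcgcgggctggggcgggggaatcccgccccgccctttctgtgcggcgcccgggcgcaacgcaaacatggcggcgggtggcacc
The match is a description of letters; no factor binding was measured.

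Transcripts of fatty acid synthesis rose with those of cholesterol synthesis: 11 of 16 list members tested were higher and 0 lower, with a median log2 difference of 0.41. FADS1, the desaturase that makes arachidonic acid, had 201, 201 and 198 FPKM at 3 d, against 51.2, 88.1 and 89.6 FPKM at 6 h. The 3 d libraries were almost identical, while replicate 1 of 6 h was low (log2 difference 1.42 ± 0.20, adjusted p = 0.00518). SCD, the desaturase that makes monounsaturated fatty acids, had 153, 154 and 151 FPKM at 3 d, against 91.4, 90.9 and 87.6 FPKM at 6 h (log2 difference 0.76 ± 0.05, adjusted p = 0.000709). ACSS2, which makes acetyl-CoA from acetate, had 26.1, 18.4 and 17.4 FPKM at 3 d, against 4.46, 6.66 and 9.92 FPKM at 6 h (log2 difference 1.47 ± 0.25, adjusted p = 0.0109). ELOVL6, an elongase, ACSL3, which activates fatty acids, and ACLY, which makes acetyl-CoA from citrate, rose by 0.81, 1.31 and 0.46. FASN, the fatty acid synthase, was at the threshold (log2 difference 0.33 ± 0.09, adjusted p = 0.049) and kept its call in 5 of 17 alternatives. The call was lost when any 1 library other than replicate 3 of 6 h was left out (adjusted p of up to 0.15). IDH1, a cytosolic source of NADPH, rose by 0.78. Leaving out 1 library gave 8 to 11 higher members, and the medians of both lipid lists stayed positive under TPM (0.64 and 0.52) and quantile scaling (0.51 and 0.38).

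Globins fell. Of 10 globin and globin-chaperone genes tested, 9 were lower at 3 d and 0 higher, with a median log2 difference of -0.95 against 0.03 over all genes. HBZ, the embryonic zeta chain, had 1214, 1293 and 1375 FPKM at 3 d, against 3817, 3984 and 3339.9 FPKM at 6 h. The highest 3 d library was far below the lowest 6 h library (log2 difference -1.52 ± 0.09, adjusted p = 0.000435). HBG2, a fetal gamma chain, had 964, 944 and 1042 FPKM at 3 d, against 2176, 1824 and 1771 FPKM at 6 h (log2 difference -0.96 ± 0.09, adjusted p = 0.00193). HBE1, the embryonic epsilon chain and the globin with the highest FPKM at 3 d, had 2179, 2086 and 2455 FPKM at 3 d, against 3835, 3395 and 3119 FPKM at 6 h (log2 difference -0.62 ± 0.10, adjusted p = 0.00818). HBA2, HBA1 and HBG1 fell by 1.38, 0.94 and 0.93 on the log2 scale. HBA1 with HBA2 and HBG1 with HBG2 are near-identical pairs between which the counting may divide reads differently. The adult chains HBD and HBB fell by 1.21 and 1.00 at low levels, and AHSP, which holds free alpha globin, fell by 0.71. AHSP lost its call without replicate 1 or 3 of 3 d (adjusted p of up to 0.061), and HBB without replicate 2 of 3 d (adjusted p of up to 0.0515). HBQ1, the theta chain, did not pass (log2 difference -0.05 ± 0.10, adjusted p = 0.766). The summed FPKM of the list was 5043 to 5744 at 3 d and 9583 to 11448 at 6 h. In bulk RNA, fewer cells that carry a transcript and less of it per cell cannot be told apart.

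Red cell membrane genes followed, with 9 of 20 lower and 1 higher (median -0.25). GYPB, glycophorin B, had 85.8, 97.5 and 99.6 FPKM at 3 d, against 224, 186 and 171 FPKM at 6 h (log2 difference -1.02 ± 0.11, adjusted p = 0.00264). KEL and ERMAP, which carry the Kell and Scianna blood groups, fell by 0.77 and 0.83. CD47, the marker that protects red cells from phagocytes, was the member that rose (0.67), a call lost whichever 1 of the 3 d libraries was left out (adjusted p of up to 0.062). The list's count of lower members was 5 without replicate 2 of 6 h or replicate 3 of 3 d, 6 without replicate 3 of 6 h or replicate 1 or 2 of 3 d, and 8 without replicate 1 of 6 h.

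Heme synthesis and the erythroid regulators were less uniform. ALAS2, the erythroid enzyme that commits to heme synthesis, had 18.7, 16.7 and 18.96 FPKM at 3 d, against 27.6, 25.4 and 27.6 FPKM at 6 h (log2 difference -0.55 ± 0.08, adjusted p = 0.00614). ALAS1, its counterpart outside the erythroid lineage, had 29.8, 29.2 and 32.6 FPKM at 3 d, against 20.5, 22.8 and 20.4 FPKM at 6 h (log2 difference 0.51 ± 0.08, adjusted p = 0.00753). The pair thus moved in opposite directions. Of 16 members in all, 4 were lower and 1 higher, with a median of -0.06 that was 0.04 under TPM. Without replicate 1, 2 or 3 of 3 d, 1, 2 and 2 members were lower. GATA1, the main erythroid factor, did not pass (log2 difference 0.12 ± 0.06, adjusted p = 0.191). GATA2, its partner in progenitors, rose by 0.45, a call lost with the GC content and length correction (0.25, adjusted p = 0.064). TAL1 and LMO2, which bind with GATA1, fell by 0.44 and 0.51, but both calls were lost under TPM and without replicate 1 or 2 of 3 d (adjusted p of up to 0.0702 for TAL1 and up to 0.114 for LMO2). LMO2 lost its call whichever 1 of the 6 libraries was left out. Of 15 such transcription factors, 2 were higher and 2 lower, and 0 or 1 were lower when any 1 library was left out. TFRC, the transferrin receptor, rose by 0.45. FTH1, a ferritin chain, fell by 0.23 and kept its call in 5 of 17 alternatives, with a difference of 0.0011 under quantile normalization. Without single libraries it had an adjusted p of up to 0.155, and replicate 3 of 3 d was the only library whose omission kept the call.

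**Figure D2:**
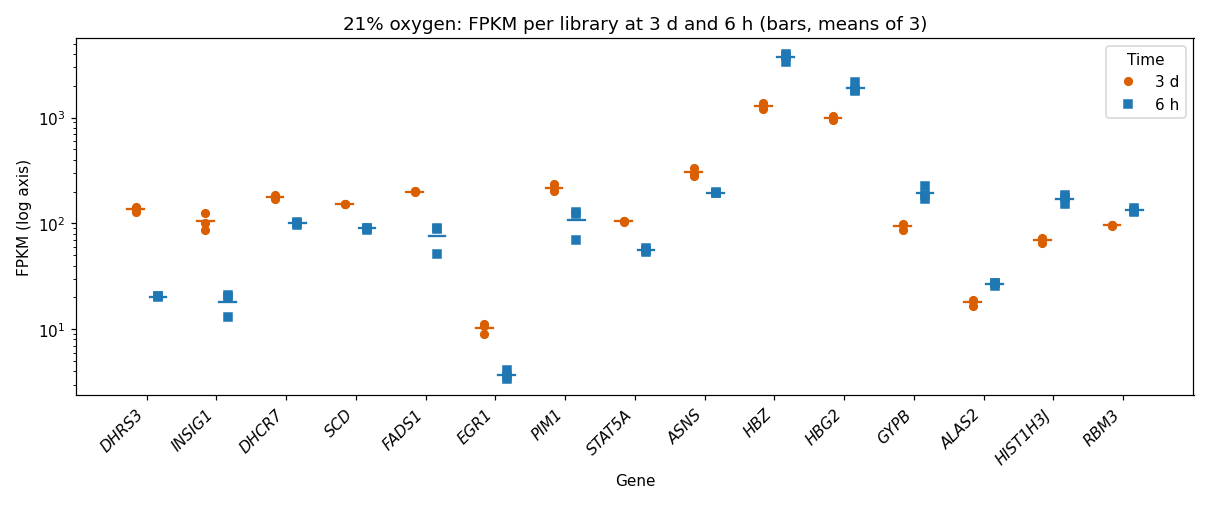
FPKM of 15 genes in each of the 6 libraries on a log axis, with 3 d as orange circles left of 6 h as blue squares and a bar at each mean of 3. The orange points lie above the blue ones from DHRS3 to ASNS and below them from HBZ to RBM3, with no overlap. Replicate 1 of 6 h is a clear low point in INSIG1, FADS1 and PIM1.

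Genes of the amino acid response divided. Of 30 ATF4-linked genes tested, 12 were higher and 2 lower (median 0.30). ASNS, which makes asparagine, had 283, 296 and 337 FPKM at 3 d, against 196, 197 and 195 FPKM at 6 h (log2 difference 0.63 ± 0.07, adjusted p = 0.00316). PHGDH, the first enzyme of serine synthesis, had 151, 149 and 161 FPKM at 3 d, against 95.5, 104 and 100.2 FPKM at 6 h (log2 difference 0.62 ± 0.06, adjusted p = 0.00205). PSAT1, the next enzyme of that pathway, and SHMT2, which turns serine into glycine in mitochondria, rose by 0.49 and 0.40. CTH, which makes cysteine, rose by 0.62, and DDIT4, an inhibitor of mTORC1, by 0.56. The 2 members that were lower were DDIT3 and ATF5. DDIT3, the factor CHOP, had 75.9, 78.9 and 79.02 FPKM at 3 d, against 109, 105 and 111 FPKM at 6 h (log2 difference -0.47 ± 0.05, adjusted p = 0.00337). ATF5, a related factor, fell by 0.95, and CHAC1, which degrades glutathione, did not pass (log2 difference -0.09 ± 0.11, adjusted p = 0.595). The count of higher members was 8 with the correction for GC content and length, 8 without replicate 1 or 3 of 3 d and 6 without replicate 2 of 3 d.

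Of 20 cytosolic aminoacyl-tRNA synthetases, which charge tRNAs and are ATF4 targets in part, 9 were higher and 0 lower (median 0.16). AARS, MARS and WARS, for alanine, methionine and tryptophan, averaged 92.6, 227 and 339 FPKM at 3 d and 63.3, 165 and 249 FPKM at 6 h. Their log2 differences were 0.54, 0.46 and 0.44. These 9 genes rose by 0.23 to 0.54, and the count was 5 without replicate 2 of 3 d. Of 18 amino acid transporters, 4 were higher and 0 lower, but only 1, 0 and 1 were higher without replicate 1, 2 or 3 of 3 d. SLC1A5, which carries glutamine, rose by 1.03 and SLC38A2, a system A carrier, by 0.36. SLC1A5 lost its call whichever 1 of the 3 d libraries was left out (adjusted p of up to 0.0779) and SLC38A2 without replicate 1 or 2 (adjusted p of up to 0.0625).

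A C/EBP-ATF response element, searched as TGATGNAA on both strands, stood in the window of 6 of the 24 ATF4-list members with one (ASNS, ATF3, CEBPG, CHAC1, SLC3A2 and SLC7A1), against 3.62% of all 35116 windows. Of these, ASNS was higher at 3 d and CHAC1 was not. The ASNS window is printed because the element is the known amino acid response site of that gene; it lies on the minus strand at chr7:97872359-97872658 (GRCh38.p14, from RefSeq), with the element in capitals starting 68 bases before the start.
ASNS: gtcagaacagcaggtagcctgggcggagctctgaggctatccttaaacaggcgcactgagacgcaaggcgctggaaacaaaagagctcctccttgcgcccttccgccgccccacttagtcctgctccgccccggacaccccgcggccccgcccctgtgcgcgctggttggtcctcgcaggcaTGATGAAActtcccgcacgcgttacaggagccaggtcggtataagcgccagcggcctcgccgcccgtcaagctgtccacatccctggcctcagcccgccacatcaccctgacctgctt
The other 5 motifs searched, for other lists, are not described.

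Immediate early genes, which growth factors and stress switch on within minutes, were higher at 3 d in 9 of 21 members tested and lower in 0 (median 0.45). EGR1 had 10.8, 11.2 and 8.99 FPKM at 3 d, against 3.65, 3.38 and 4.07 FPKM at 6 h (log2 difference 1.27 ± 0.11, adjusted p = 0.00167). IER2 had 73.8, 52.1 and 30.8 FPKM at 3 d, against 5.24, 10.2 and 13.5 FPKM at 6 h. It rose the most of the list, with a wide spread in both groups (log2 difference 2.32 ± 0.37, adjusted p = 0.00901). IER3 rose by 0.94 and FOS, at low level, by 1.05. DUSP1, a phosphatase that switches off MAP kinases, rose by 1.59, a call lost when replicate 2 of 6 h or any 1 of the 3 d libraries was left out (adjusted p of up to 0.108). The list's count was 6 without replicate 1 or 2 of 3 d. The summed FPKM of the list was 626 to 711 at 3 d and 273 to 382 at 6 h. The list includes ID1 and ID3, described below, which are among the 9 higher members, and ID1 makes up a large part of these sums.

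STAT5, which BCR-ABL1 keeps active in this line, is read through its targets. STAT5A itself had 104, 105 and 106 FPKM at 3 d, against 56.7, 58.8 and 53.6 FPKM at 6 h. It nearly doubled, with little spread (log2 difference 0.88 ± 0.06, adjusted p = 0.000709). PIM1, a survival kinase induced by STAT5, had 234, 216 and 201 FPKM at 3 d, against 69.1, 123 and 128 FPKM at 6 h. Replicate 1 of 6 h was low (log2 difference 1.07 ± 0.22, adjusted p = 0.0171), and the call was lost whichever 1 of the 3 d libraries was left out (adjusted p of up to 0.0684). CISH, a feedback inhibitor and classical STAT5 target, did not pass (log2 difference 0.16 ± 0.06, adjusted p = 0.114). Of 13 list members tested, 6 were higher and 0 lower (median 0.37), and 2 were higher when replicate 1, 2 or 3 of 3 d was left out. The list counts STAT5A itself among these members. ID1, an inhibitor of differentiation factors that BMP signals raise, had 253, 251 and 254 FPKM at 3 d, against 115, 151 and 144 FPKM at 6 h. Its 3 d libraries were nearly equal (log2 difference 0.89 ± 0.10, adjusted p = 0.00295), and its relative ID3 rose by 1.57. SMAD6, an inhibitor of BMP signals, rose by 1.25 at low level, a call lost without replicate 1 or 2 of 3 d (adjusted p of up to 0.0657).

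MYC rose by 0.23 (adjusted p = 0.0348) and kept its call in 8 of 17 alternatives. Replicate 2 of 6 h was the only library whose omission kept it (adjusted p of up to 0.106 without the others). GDF15, a stress-induced cytokine, had 67.9, 68.4 and 76.8 FPKM at 3 d, against 33.1, 37.04 and 33.3 FPKM at 6 h (log2 difference 1.02 ± 0.08, adjusted p = 0.000878). CDKN1A, the inhibitor p21, had 4.90, 6.08 and 5.03 FPKM at 3 d, against 2.63, 1.84 and 2.37 FPKM at 6 h (log2 difference 0.95 ± 0.13, adjusted p = 0.00556). Both are targets of p53, which K562 cells lack in functional form, and of other factors. Of 16 p53-linked genes tested, 4 were higher and 1 lower, and 2 were higher without replicate 1 or 2 of 3 d. NF-kB targets divided, with 3 of 10 higher and 2 lower. ICAM1, an adhesion molecule, had 18.2, 19.97 and 18.96 FPKM at 3 d, against 8.99, 9.57 and 7.36 FPKM at 6 h (log2 difference 1.06 ± 0.11, adjusted p = 0.00211), and the chemokine IL8 rose by 1.02. The chemokine CXCL3 had 5.84, 8.27 and 7.14 FPKM at 3 d, against 18.4, 11.98 and 16.6 FPKM at 6 h (log2 difference -1.03 ± 0.17, adjusted p = 0.00983), and its relative CXCL2 fell by 0.72, a call kept in 7 of 16 alternatives. Of 10 BCL2 family genes 3 were higher and 1 lower. BCL2L1, which inhibits cell death, BAK1, which carries it out, and BCL2L12 rose by 0.36, 0.42 and 0.90. BCL2L11, the death activator BIM, fell by 0.54, a call lost with the GC content and length correction (adjusted p = 0.0864).

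Antigen presentation and interferon-linked genes were higher in 8 of 21 members tested and lower in 0 (median 0.35). HLA-E, a class I molecule seen by natural killer cells, had 16.4, 15.5 and 15.3 FPKM at 3 d, against 7.96, 8.32 and 7.53 FPKM at 6 h (log2 difference 0.90 ± 0.08, adjusted p = 0.00155). TAP1, the peptide transporter, rose by 0.94 and IFITM3, an antiviral membrane protein, by 0.48. The count was 5 without replicate 1 or 2 of 3 d. Lysosomal and autophagy genes were higher in 10 of 30 and lower in 0 (median 0.22): CTSB, cathepsin B, and PSAP, which is cut into sphingolipid activators, rose by 0.60 and 0.46. The lysosomal count was 2 without replicate 2 of 3 d, 4 without replicate 1 or 3 of 3 d and 8 to 9 without a library of 6 h. Of 22 chaperones of the endoplasmic reticulum, 8 were higher and 1 lower (median 0.26). HYOU1 and PDIA6, a chaperone and a disulfide isomerase, rose by 0.46 and 0.50. HSPA5, the main chaperone BiP, rose by 0.32, a call lost when any 1 library other than replicate 1 of 6 h was left out (adjusted p of up to 0.113). The count of higher chaperones was 3 when any 1 of the 3 d libraries was left out and 4 without replicate 3 of 6 h.

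Hypoxia-induced genes and glycolysis genes rose in part. Of 21 hypoxia-induced genes tested, 6 were higher and 0 lower (median 0.18). BHLHE40, a repressor of the clock that hypoxia raises, had 26.03, 23.7 and 26.05 FPKM at 3 d, against 13.05, 12.3 and 13.7 FPKM at 6 h (log2 difference 0.90 ± 0.08, adjusted p = 0.00141). P4HA1 and P4HA2, collagen prolyl hydroxylases, rose by 0.50 and 0.71. VEGFA, BNIP3 and EGLN3, standard hypoxia reporters for vessel growth, mitophagy and oxygen sensing, did not pass, with log2 differences of 0.06, -0.05 and 0.37 and an adjusted p of 0.768, 0.638 and 0.101. Of 21 glycolysis genes, 6 were higher and 0 lower (median 0.11), with 3 higher without replicate 2 or 3 of 3 d. SLC2A3, a glucose carrier, had 27.2, 28.2 and 27.8 FPKM at 3 d, against 17.9, 16.4 and 17.3 FPKM at 6 h (log2 difference 0.66 ± 0.07, adjusted p = 0.00228). ALDOC and PKM, an aldolase and a pyruvate kinase, rose by 0.59 and 0.47, PKM losing its call without replicate 2 or 3 of 3 d (adjusted p of up to 0.0526). LDHA, which makes lactate, averaged 1084 ± 35.8 FPKM at 3 d and 1084 ± 9.82 FPKM at 6 h (log2 difference -0.00 ± 0.05, adjusted p = 0.995), and the difference was 0.24 with quantile normalization. IDH2, a mitochondrial isocitrate dehydrogenase, rose by 0.73, within a list of 26 TCA cycle genes of which 4 were higher and 1 lower, near the shares over all genes (10.9% and 7.56%). That count of higher genes was 2 when replicate 2 or 3 of 6 h or any 1 of the 3 d libraries was left out.

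Among genes for ribosomes and the respiratory chain, which have short transcripts, most members did not pass, and most of those that did were lower. Of 83 cytosolic ribosomal protein genes tested, 34 were lower and 1 higher (median -0.29). RPL11 averaged 2913 ± 120 FPKM at 3 d and 3897 ± 246 FPKM at 6 h (log2 difference -0.42 ± 0.07, adjusted p = 0.011), a call lost without replicate 1 or 2 of 3 d (adjusted p of up to 0.0572). RPS26 averaged 215 ± 9.11 FPKM at 3 d and 341 ± 44.6 FPKM at 6 h (log2 difference -0.65 ± 0.10, adjusted p = 0.00699). The median length of this list was 820 bases, against 2729 for all genes tested. The count of lower members was 2 without replicate 1 or 2 of 3 d, 8 without replicate 2 of 6 h, 9 without replicate 3 of 3 d, 26 without replicate 1 of 6 h and 45 without replicate 3 of 6 h. It was 1 in the fit over the 12 libraries of 21% oxygen and 0 in a fit over 36 libraries. The median was -0.18 under TPM, -0.08 with quantile normalization and -0.10 with the correction for GC content and length. Under quantile normalization 16 members were higher and 26 lower, and under that correction 6 were higher and 22 lower. Many of these genes have processed pseudogenes, so part of their counts is uncertain.

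Of 45 genes of respiratory complex I, 16 were lower and 0 higher (median -0.19), and the median length of the list was 958 bases. NDUFB2, an accessory subunit, averaged 406 ± 22.3 FPKM at 3 d and 676 ± 86.03 FPKM at 6 h (log2 difference -0.73 ± 0.10, adjusted p = 0.00463). Of 45 genes of complexes II to V, 16 were lower and 2 higher (median -0.19): ATP5I, a subunit of ATP synthase, and COX6C, of cytochrome oxidase, fell by 0.90 and 0.67, COX6C losing its call without replicate 1 or 3 of 3 d (adjusted p of up to 0.0551). CYC1, of complex III, rose by 1.06, with 484, 375 and 416 FPKM at 3 d, against 122, 257 and 261 FPKM at 6 h. Replicate 1 of 6 h was low, and the call was lost whichever 1 of the 3 d libraries was left out (adjusted p of up to 0.118). The counts of lower members were 4 and 1 without replicate 1 of 3 d, 5 and 3 without replicate 2, 7 and 3 without replicate 3, and 9 and 5 without replicate 2 of 6 h. In a fit over 36 libraries they were 3 and 2. Of 76 mitochondrial ribosome genes, 14 were lower and 0 higher, with a median of -0.07 that was 0.04 under TPM. That count was 4 without replicate 1 or 2 of 3 d, 6 without replicate 1 of 6 h, 5 without replicate 2 of 6 h and 0 in a fit over 36 libraries. Of 32 MYC-linked genes of ribosome biogenesis, 8 were lower and 1 higher (median -0.12). NOP58, a core protein of small nucleolar particles, fell by 0.33, a call lost under TPM. The lower count was 1 under TPM and without replicate 2 of 6 h or replicate 1 or 2 of 3 d, 3 without replicate 3 of 3 d and 5 without replicate 3 of 6 h. Of 37 proteasome genes, 0 were higher and 1 lower.

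The cell cycle lists are read against 10.9% of all genes higher and 7.56% lower. Of 40 S-phase genes, 1 was higher and 1 lower (median 0.02), against 10 and 0 under TPM. MCM5, a helicase subunit of replication, averaged 107 ± 5.17 FPKM at 3 d and 111 ± 3.83 FPKM at 6 h (log2 difference -0.05 ± 0.06, adjusted p = 0.589). Of 38 genes of G2 and mitosis, 5 were lower and 1 higher, against 2 and 5 under TPM. The lower count was 1 and 0 without replicate 1 or 2 of 3 d, and 3 without replicate 3 of 3 d or of 6 h. MKI67, the Ki-67 proliferation marker, fell by 0.43, a call lost under TPM and without replicate 2 of 3 d (adjusted p of up to 0.0516). Among 17 G1 regulators 4 were higher and 1 lower, with 2 higher without replicate 1 of 3 d. CDKN1A and the cyclin CCND1 (log2 difference 0.74 ± 0.16, adjusted p = 0.0202) were among the higher, CCND1 losing its call whichever 1 of the 3 d libraries was left out (adjusted p of up to 0.0742). Replication-dependent histones, whose transcripts normally end in a stem-loop and are not polyadenylated, fell more: 17 of 45 tested were lower and 3 higher (median -0.33). HIST1H3J had 72.7, 70.9 and 65.7 FPKM at 3 d, against 185, 152 and 174 FPKM at 6 h (log2 difference -1.27 ± 0.08, adjusted p = 0.000709). HIST1H4I fell by 0.95 and HIST1H3B by 1.00. Since the libraries were selected for poly(A), these values count only histone transcripts caught by that step. Leaving out 1 library gave 10 to 18 lower histones, with 10 without replicate 2 of 3 d.

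Of 10 RNAs that stay in the nucleus, 5 were lower and 0 higher (median -0.34): MALAT1 had 129.9, 134 and 106 FPKM at 3 d, against 294, 195 and 233 FPKM at 6 h (log2 difference -0.95 ± 0.15, adjusted p = 0.00911). NEAT1, the scaffold of paraspeckles, fell by 0.62, a call lost without replicate 1 of 3 d (adjusted p of up to 0.0574). The count was 2 without replicate 1 of 3 d and 3 without replicate 2 or 3 of 3 d. RBM3, an RNA-binding protein known for its rise in the cold, had 96.8, 97.3 and 94.1 FPKM at 3 d, against 138, 129 and 132 FPKM at 6 h (log2 difference -0.46 ± 0.05, adjusted p = 0.00344). Its relative CIRBP fell by 0.37, a call lost under TPM. The other 2 members of that list of 4 cold-inducible genes, RTN3 and SRSF5, rose by 0.34 and 0.26.

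Most markers of other lineages lay below the filter on low values, while the globins, GYPB and GATA1, which mark the erythroid lineage, were detected in all 6 libraries. Of 12 lymphoid markers 2 were tested, and CD7 and GNLY were at 0 in all 6 libraries. CD3D, a T-cell receptor subunit, had 91.6, 95.1 and 104 FPKM at 3 d, against 57.5, 50.95 and 44.9 FPKM at 6 h (log2 difference 0.92 ± 0.10, adjusted p = 0.00264), while CD3G, another subunit, did not pass (log2 difference 0.46 ± 0.17, adjusted p = 0.0893). The summed FPKM of the lymphoid list was 97.4 to 110 at 3 d and 48.0 to 60.7 at 6 h. Of 19 myeloid markers 5 were tested and CD68, a lysosomal protein of macrophages, rose by 0.69, a call lost whichever 1 of the 3 d libraries was left out (adjusted p of up to 0.063). ELANE and TPSAB1 were at 0 in all 6 libraries, and the summed level was 103 to 119.7 FPKM at 3 d and 94.0 to 100.1 FPKM at 6 h. Of 15 megakaryocyte genes 4 were tested. GP6, the collagen receptor of platelets, rose by 0.88 and TUBB1, their tubulin, fell by 0.72. Of 13 epithelial and stromal markers 6 were tested and 4 were higher, the keratin KRT8 among them (0.39). Their summed levels were 1929.99 to 2019 FPKM at 3 d and 1629 to 1770 FPKM at 6 h. Their part in the other results was not tested.

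**Figure D3:**
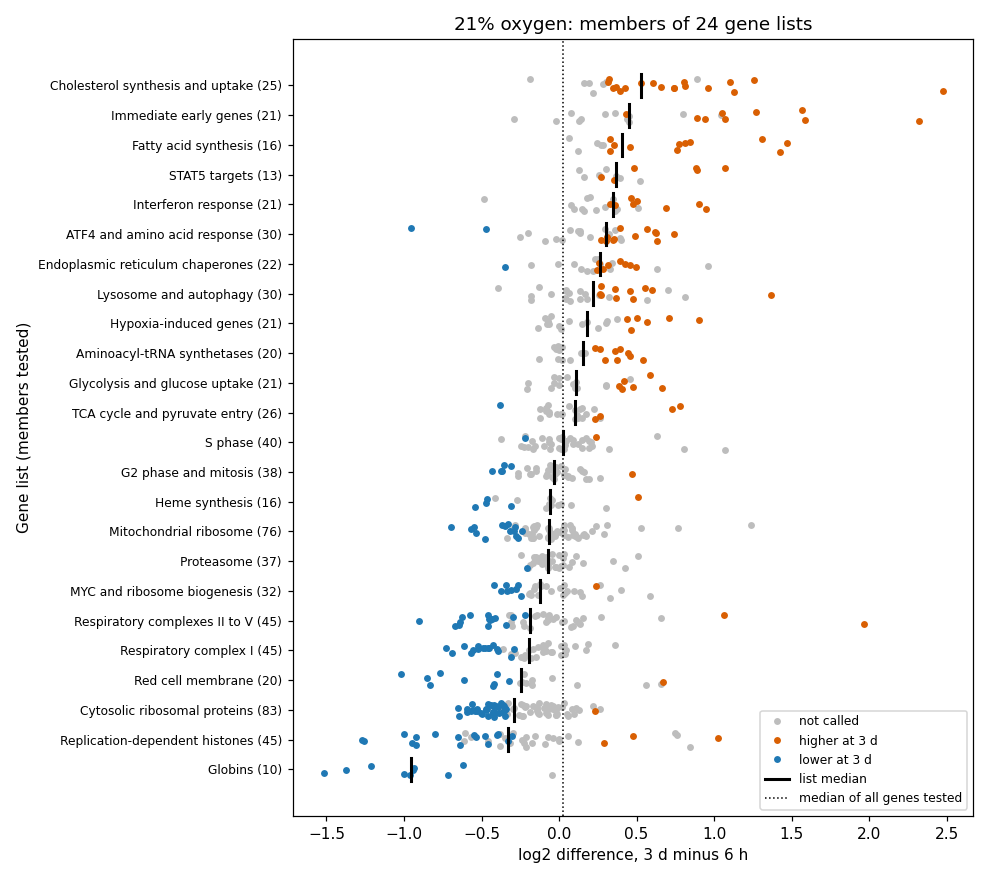
Each row is 1 of 24 gene lists with the number of members tested in brackets, each point a member placed by its log2 difference (3 d minus 6 h), orange where higher at 3 d, blue where lower and grey where not passed; the black tick is the list's median and the dotted line the median of all genes. The tick of cholesterol synthesis stands furthest to the right at 0.53 and that of globins furthest to the left at -0.95, while S phase lies on the dotted line.

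The other 2 times of 21% oxygen place these changes. The comparison of 24 h with 6 h shares the 6 h libraries, and that of 6 d with 3 d shares the 3 d libraries, so their values are given side by side without an overlap. At 24 h against 6 h, 12 genes passed (0.117% of those tested), 3 higher (0.0291%) and 9 lower (0.0874%), and 2021 had an unadjusted p under 0.05. The genes named here were chosen after their values were seen. The 3 that rose were DHRS3 (log2 difference 1.31 ± 0.08, adjusted p = 2.86e-05), CYP26A1 (1.11 ± 0.15, adjusted p = 0.0176) and ALAS2 (0.72 ± 0.08, adjusted p = 0.00367). The 9 that fell included the sterol genes HMGCS1, LSS and CYP51A1, the fatty acid genes FASN and SCD, and AHNAK, PRKCI and HIST1H1B. The medians of the lipid lists at 24 h against 6 h were -0.25 for cholesterol (4 of 25 members lower) and -0.33 for fatty acids (2 of 16 lower). The count of genes at 24 h was 1 under TPM, where the median over all genes was -0.20, and 263 in a fit over 35 libraries. It was 121 without replicate 1 of 24 h, 4 without replicate 2 of 24 h or of 6 h and 5 without replicate 3 of 6 h.

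SCD had 65.6, 61.8 and 53.2 FPKM at 24 h, below every 6 h library, and 153, 165 and 157 FPKM at 6 d. HBZ had 4630.3, 5925 and 8973 FPKM at 24 h, all above 6 h though widely spread (log2 difference 0.76 ± 0.19, adjusted p = 0.168), and 1163, 1232 and 1131 FPKM at 6 d. The FPKM of all genes summed to 780267, 900700 and 1171410 in replicates 1, 2 and 3 of 24 h, against 734223 to 817472 at 6 h. Replicate 3 of 24 h also had the fewest genes above 0 at that time (14512). The part of these totals in the 24 h values of HBZ and the other globins was not tested. The globin list had a median of 0.46 at 24 h against 6 h and of -0.07 at 6 d against 3 d. ASNS had 258, 252 and 282 FPKM at 24 h and 198, 172 and 194 FPKM at 6 d, where it had fallen below 3 d (log2 difference, 6 d minus 3 d, -0.69 ± 0.09, adjusted p = 0.000778).

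At 6 d against 3 d, 551 genes passed (5.35% of those tested), 431 higher (4.19%) and 120 lower (1.17%). The total was 158 under TPM, 433 without replicate 1 of 3 d, and 293 and 238 without replicates 2 and 3 of 3 d. It was 253, 317 and 287 without replicates 1, 2 and 3 of 6 d. PHGDH and PSAT1 were lower at 6 d than at 3 d by 0.86 and 0.62 on the log2 scale, as 14 of 30 ATF4-linked genes and 7 of 20 tRNA synthetases were, with 0 higher in either list. INSIG1 went on rising, with 255, 279.8 and 286 FPKM at 6 d (log2 difference, 6 d minus 3 d, 1.40 ± 0.17, adjusted p = 0.000593). STAT5A stood at 79.97, 85.5 and 83.9 FPKM at 6 d, between its 6 h and 3 d levels (6 d minus 3 d, -0.33 ± 0.07, adjusted p = 0.0126). DHRS3 had 130.4, 138 and 143 FPKM and RPL11 2742, 2834 and 2415 FPKM at 6 d. Of the 12 plotted genes, ASNS and STAT5A passed as lower at 6 d than at 3 d, and the other 10 did not pass.

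**Figure D4:**
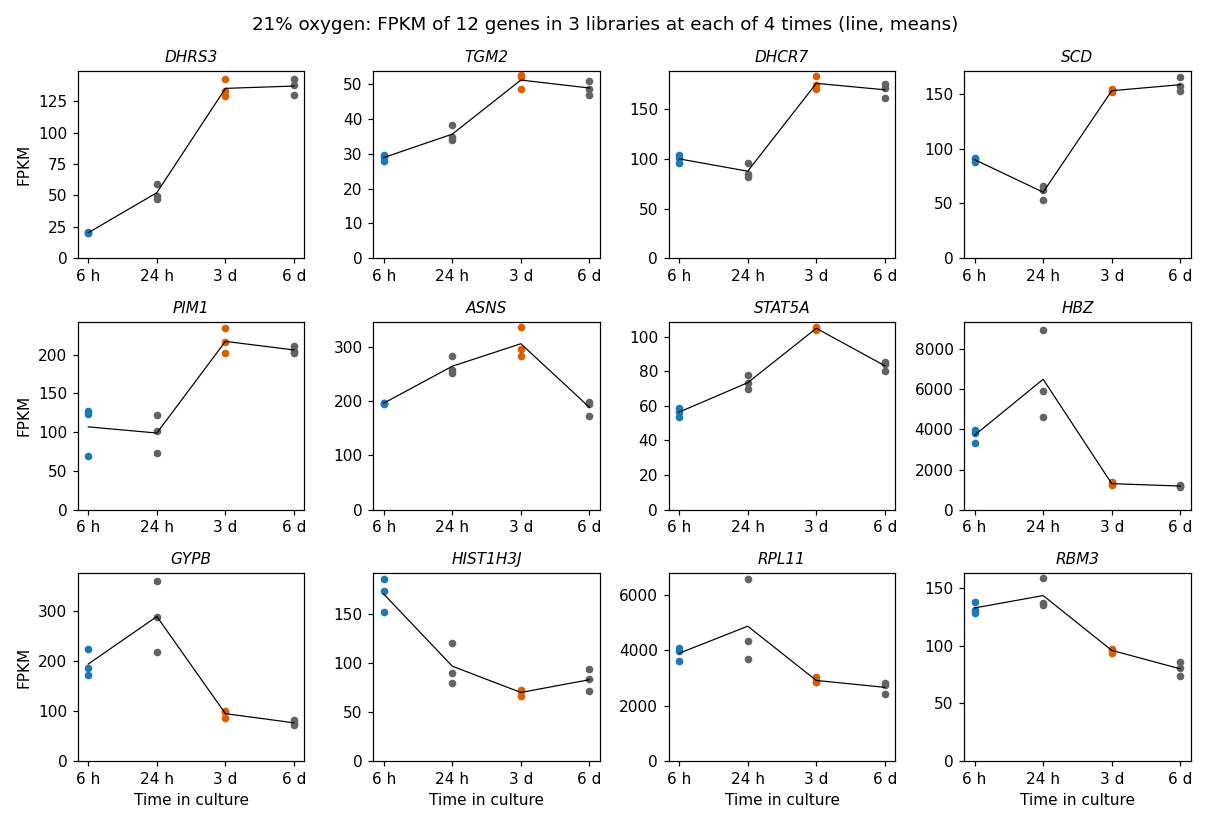
FPKM of 12 genes at 6 h, 24 h, 3 d and 6 d of culture in 21% oxygen, 3 libraries at each time (6 h in blue, 3 d in orange) with a line through the means. DHRS3 climbs at 24 h and again at 3 d, the means of DHCR7 and SCD are lowest at 24 h and higher from 3 d, ASNS peaks at 3 d, and HBZ and GYPB are highest at 24 h and lowest from 3 d.

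The same interval in 5% and 1% oxygen, in libraries that share none with 21% oxygen, gave more calls. In 5% oxygen 4543 genes passed (44.1%), with 18.1% of genes higher and 26% lower. In 1% oxygen 5644 passed (54.8%), with 24.1% higher and 30.7% lower. Under TPM these splits were 1307 higher and 3676 lower in 5% oxygen, with a median over all genes of -0.25, and 3102 higher and 2474 lower in 1% oxygen. The filter on low values used only 21% oxygen libraries, so it left out genes that were low there. With no filter, 2642 genes were higher and 2235 lower in 5% oxygen, and 4217 and 2736 in 1% oxygen. The 1% comparison leaves out replicate 3 of 3 d, in which 7220 genes were above 0, so its 3 d group has 2 libraries. Of the 1125 genes higher in 21% oxygen, 613 (54.5%) were also higher in 5% oxygen, where they made up 32.9% of the 1863 genes that rose, and 78 (6.93%) were lower. Of the 778 lower genes, 410 (52.7%) were also lower in 5% oxygen, 15.3% of the 2680 genes that fell there, and 31 (3.98%) were higher. In 1% oxygen the shared numbers were 515 (45.8% of 1125 and 20.7% of 2485) and 408 (52.4% of 778 and 12.9% of 3159), with 198 and 104 in the opposite direction.

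The difference between oxygen levels was tested itself, as the 3 d minus 6 h change in 5% or 1% oxygen minus that in 21% oxygen. It passed for 2931 genes in 5% oxygen (28.5%), with 9.72% of genes positive and 18.7% negative, and for 4686 in 1% oxygen (45.5%), with 17.7% positive and 27.8% negative. For 5% oxygen the split was 523 positive and 3709 negative under TPM, where the median over all genes was -0.39, and 1319 and 1594 with quantile normalization. With no filter on low values it was 1267 positive and 1595 negative for 5%. For 1% it was then 4074 positive and 2709 negative, so the direction of that split depended on the filter. Transcripts of cholesterol synthesis and uptake rose further in low oxygen, with list medians of 1.57 in 5% and 1.57 in 1% oxygen, against 0.53 in 21% oxygen. The difference was positive in 18 and negative in 1 of 25 members for 5%, and positive in 18 and negative in 2 for 1%. Hypoxia-induced genes had medians of 1.62 and 2.00, against 0.18 in 21% oxygen, with 20 of 21 differences positive and 1 negative at each level. Globins had medians of -0.29 in 5% and -0.30 in 1% oxygen, against -0.95 in 21% oxygen, with 5 of 10 differences positive and 0 negative for 5%, and 6 positive and 1 negative for 1%.

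Several genes moved in opposite directions. STAT5A averaged 29.3 ± 1.11 FPKM at 3 d and 59.8 ± 6.02 FPKM at 6 h in 5% oxygen, and 18.7 ± 0.607 FPKM at 3 d and 63.3 ± 3.81 FPKM at 6 h in 1% oxygen (SD, n = 3 each but n = 2 at 3 d in 1% oxygen). It fell by 1.00 and 1.71 on the log2 scale in 5% and 1% oxygen, against its rise of 0.88 in 21% oxygen. The differences were -1.88 ± 0.11, adjusted p = 3.11e-07, for 5% and -2.59 ± 0.10, adjusted p = 3.3e-08, for 1%. DDIT3 rose by 2.06 and 2.22 in 5% and 1% oxygen, and fell by 0.47 in 21% oxygen (difference 2.53 ± 0.13, adjusted p = 1.26e-07, for 5% and 2.69 ± 0.08, adjusted p = 1.08e-08, for 1%). HBE1 and ALAS2 rose in 5% oxygen by 0.60 and 0.74, against falls by 0.62 and 0.55 in 21% oxygen (differences 1.23 ± 0.15, adjusted p = 0.000107, and 1.28 ± 0.14, adjusted p = 5.21e-05). PTHLH rose by 2.13 and 1.83 in 5% and 1% oxygen, and its difference was 3.71 ± 0.25, adjusted p = 1.13e-06 for 5%. It was chosen in part for its fall in 21% oxygen, which enters that difference. The ribosome biogenesis list, at a median of -0.76 in 5% and -1.22 in 1% oxygen, was lower in 28 and 31 of 32 members, against 8 in 21% oxygen. The difference was negative in 27 and 31. S-phase genes were lower in 31 and 35 of 40, against 1 in 21% oxygen, and the difference was negative in 28 and 30.

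DHRS3 was chosen for its rise in 21% oxygen, a value that enters its differences. It rose at all 3 oxygen levels, by 2.01 and 1.19 in 5% and 1% oxygen, against 2.68 in 21% oxygen. The differences were -0.66 ± 0.14, adjusted p = 0.00373, for 5% and -1.49 ± 0.13, adjusted p = 9.42e-06, for 1%. TGM2, by contrast, did not pass in 5% oxygen (-0.13, adjusted p = 0.321) and fell by 0.55 in 1% oxygen (difference -0.93 ± 0.11, adjusted p = 0.000103, for 5% and -1.35 ± 0.12, adjusted p = 7.5e-06, for 1%), while CYP26A1 rose by 3.18 and 3.34 (difference 1.12 ± 0.19, adjusted p = 0.0011, for 5% and 1.27 ± 0.20, adjusted p = 0.000365, for 1%). ID1 did not pass in 5% oxygen (0.13, adjusted p = 0.21) and fell by 0.79 in 1% oxygen, against its rise of 0.89 in 21% oxygen, with a difference of -0.76 ± 0.13, adjusted p = 0.00101, for 5% and -1.68 ± 0.14, adjusted p = 6.35e-06, for 1%.

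**Figure D5:**
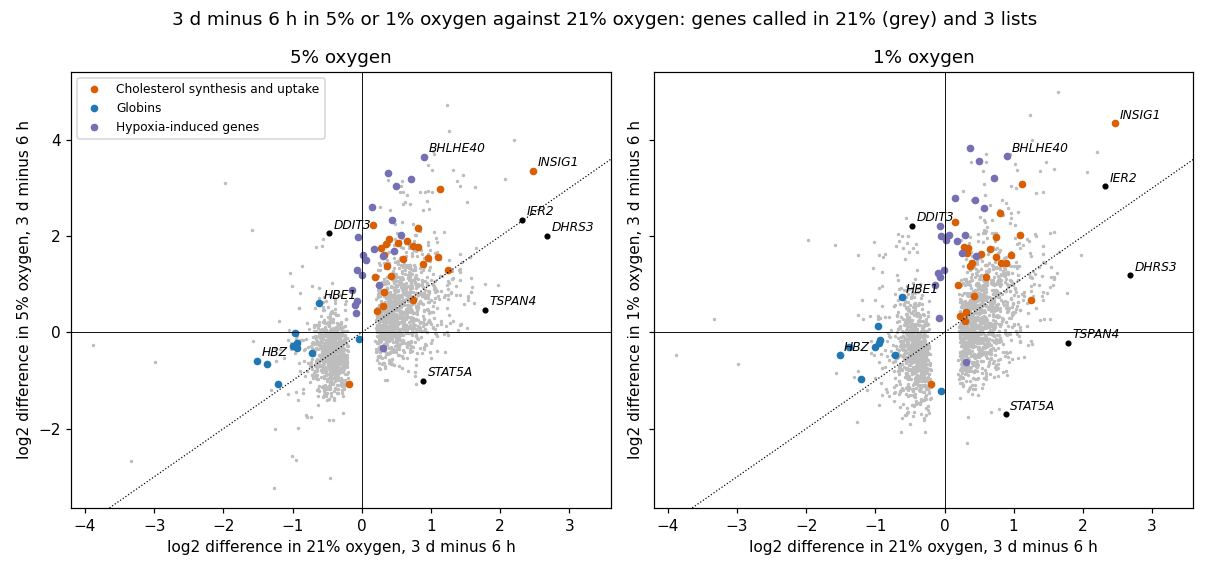
The log2 difference (3 d minus 6 h) in 5% oxygen (left) and 1% oxygen (right) against that in 21% oxygen, for genes that passed in 21% oxygen (grey) and all tested members of 3 lists in colour; the dotted line marks equal change. Cholesterol and hypoxia-induced genes lie above the dotted line in both panels with few exceptions, and STAT5A and DDIT3 lie in the quadrants of opposite change.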

How the data were processed

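RNA of K562 cells, a leukemia line, was collected after 6 h, 24 h, 3 d and 6 d in incubators at 1%, 5% or 21% oxygen, in 12 groups of 3 libraries. Per the labels, RNA was extracted with Qiagen RNeasy kits, poly(A) transcripts were amplified by a Smart-seq2-like protocol, and paired reads of 25 bases were made. The deposited values are FPKM, which the authors made with TopHat, Cufflinks and Cuffnorm per the submitters' processing notes. The sources used here give neither the versions of these tools nor the genome build or gene models. A deposited table of FPKM for 41726 transcripts was used for checks and to choose the transcript that set the GC content and length of each gene. Read numbers are unknown: only depth relative to replicate 1 of 3 d could be read, from the steps between low values, so no counting intervals are given.

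Samples were grouped by the labelled oxygen level and time. Each gene was compared as log2(FPKM + 1) with limma 3.58.1 (R 4.3.3; moderated tests with a mean-dependent prior, Benjamini-Hochberg adjustment), over the 10296 genes (46.9% of 21950) with a mean of at least 1 FPKM in the 6 libraries of 21% oxygen at 3 d and 6 h. The values of 3 d against 6 h come from those 6 libraries. The comparisons of 24 h with 6 h and of 6 d with 3 d come from the 12 libraries of 21% oxygen, and those of 5% and 1% oxygen from the libraries compared, without replicate 3 of 3 d in 1% oxygen, which had 7220 genes above 0. Errors on differences are standard errors. The procedure was tested on simulated data with 200 changed genes among the 10296. For 3 d against 6 h it recovered 52.5%, 83.3% and 98.2% of changes of 1.5-fold, 2-fold and 4-fold, with 1.25% to 4.71% false calls. The simulated noise was normal and independent between genes. Shifts shared by many genes of a library were not simulated, so these shares are not error rates of the real libraries.

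The named genes are the 15 largest rises and 15 largest falls with a mean of at least 5 FPKM in the higher group and no overlap between groups, small RNAs and olfactory receptors left out, up to 4 members of each gene list with the smallest adjusted p, a fixed set of genes, and the 5 largest differences between oxygen levels in each direction. Some genes that the rule names are not reported here. Other genes named in the text were chosen after their values were seen. The comparison and all lists were chosen with earlier results of these data known. Promoters came from RefSeq tables on GRCh38.p14 by symbol. GC content and length were computed from GENCODE transcript sequences, for 97.4% of the genes tested. The transcript used was the RefSeq-paired transcript with the highest mean FPKM in the 6 libraries compared. Where a gene had no such transcript, the longest GENCODE transcript of that gene name was used. Alternatives were a pseudocount of 0.1, other filters, TPM, quantile normalization, wider fits, a replicate block, a GC content and length correction, array weights and leaving out single libraries. Tables and figures were made with Python 3.11.15 and matplotlib 3.10.9.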

Additional observations from a re-analysis of the deposited data

Results flagged for a closer look

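These results were selected because the change between 3 d and 6 h differed between oxygen levels by a test of the difference itself (5% or 1% oxygen minus 21% oxygen, limma, adjusted p under 0.05). Values are differences on the log2(FPKM + 1) scale, and those of 1% oxygen rest on 2 libraries at 3 d. The test passed for 2931 genes in 5% oxygen and for 4686 in 1% oxygen.

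Among the genes chosen for their change in 21% oxygen, INSIG1 differed by 0.89 in 5% and 1.88 in 1% oxygen, and PRF1, perforin, by 1.79 and 1.54, so both rose further in low oxygen. ROCK1P1 differed by 1.39 and 3.36. DHRS3 differed by -0.66 and -1.49, and TSPAN4 by -1.31 and -1.99. KCNN4 differed by -0.96 in 1% oxygen, C10orf54 and F2R by -0.74 and -0.87 in 5% oxygen, and DUSP1 by 1.80 in 1% oxygen. PTHLH, which fell in 21% oxygen, differed by 3.71 and 3.41. The globins HBZ and HBA2 differed by 0.92 and 0.72 in 5% oxygen and by 1.04 and 1.06 in 1% oxygen. HIST1H3J differed by -0.59 in 1% oxygen, and MAB21L3 by 2.85. Sequences that share reads with copies or overlap other genes also differed: MTRNR2L2 and MTRNR2L1 by 0.93 and 0.84 in 5% oxygen and by 1.62 and 1.46 in 1% oxygen, RPL36A-HNRNPH2 by 2.37 and 2.34, and FLJ26245 and SNAR-E by 3.62 and 3.90 in 1% oxygen.

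The largest positive differences in 5% oxygen were those of TIMP1, an inhibitor of metalloproteinases (3.87), BTG2, an antiproliferative protein (3.86), the chemokine CCL2 (3.73), PTHLH and LINC00659 (3.49). In 1% oxygen they were those of CCL2 (4.58), BTG2 (4.04), the tubulin TUBA1A (3.91), SNAR-E and the hyaluronan receptor CD44 (3.81). TIMP1, BTG2, CCL2, TUBA1A and CD44 did not pass in 21% oxygen itself. The largest negative differences in 5% oxygen were those of the linker histones HIST1H1E (-2.56) and HIST1H1B (-2.17), ICMT, which methylates prenylated proteins (-2.09), HIST2H2AC (-2.03) and FAM173A (-1.91). In 1% oxygen they were those of FAM173A (-2.77), the cochaperone FKBP4 (-2.71), IFI30, a lysosomal thiol reductase (-2.64), STAT5A (-2.59) and NTHL1, a DNA repair glycosylase (-2.45). Replicate 1 of 6 h in 21% oxygen was the low library in several of these. ICMT had 9.99, 29.1 and 31.8 FPKM in the 6 h libraries, and FKBP4 had 19.7, 53.2 and 54.1 FPKM. FAM173A had 23.1, 43.5 and 39.0 FPKM and NTHL1 had 22.0, 39.6 and 46.7 FPKM. Without that library the test of the difference passed for 2592 genes in 5% oxygen (917 positive and 1675 negative). For 1% oxygen it passed for 4585 (1817 positive and 2768 negative). The differences of these single genes without that library are not reported here.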

How the results depend on the processing

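For 3 d against 6 h in 21% oxygen, 978 genes passed with no filter, 499 in a fit over 36 libraries and 661 to 1724 without 1 library. At 24 h against 6 h the count was 4 with no filter, 1 under TPM, 40 with quantile normalization, 263 in a fit over 35 libraries, 41 with the GC content and length correction and 4 to 121 without 1 library. At 6 d against 3 d it was 345 with a mean of at least 5 FPKM, 158 under TPM, 125 in a fit over 36 libraries and 238 to 433 without 1 library. The fit over 36 libraries gave 2876 genes for 5% oxygen and 1146 for the difference 5% minus 21%. With the shallow library kept, 1% oxygen gave 1061 genes and the difference 1% minus 21% gave 1344. Leaving out 1 library gave 3514 to 4591 and 4626 to 5533 genes for 5% and 1% oxygen, and 2302 to 3080 and 4113 to 4587 for the 2 differences. The cause of these moves was not tested. The replicate numbers were not taken as pairs, since deviations of same-numbered libraries correlated at -0.139, -0.042 and -0.092. With the number as a replicate block, 835 genes passed at 3 d against 6 h and 2 at 24 h against 6 h. The block left 5 of 83 ribosomal protein, 8 of 45 complex I, 5 of 45 complex II to V and 4 of 76 mitochondrial ribosome genes lower. Of the 190 genes examined for the text, LDHA (0.24) and FTH1 (0.0011) changed sign with quantile normalization while passing under 1 of the 2 settings. Genes near 0, such as CHAC1, MCM5 and BNIP3, crossed 0 under some settings without passing. In the fit over 36 libraries 67 of the 190 no longer passed, 37 with no filter, 30 with the replicate block, 11 under TPM and 4 with a pseudocount of 0.1. Without replicate 1, 2 or 3 of 3 d 47, 50 and 39 no longer passed, and without replicate 1, 2 or 3 of 6 h 11, 22 and 15. The median changed sign in 8 of 47 lists under TPM, 3 with quantile normalization and 4 with the GC content and length correction. Depth differed between 3 d and 6 h and is known only as a ratio, so low values are the least certain.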
